A study of Mus musculus with 7 samples.

Results

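The cytosolic ribosomal protein genes were examined through their protein-coding transcripts in embryonic mouse retina with and without knockdown of Setd1a. Members were the genes whose symbol is Rpl or Rps followed by a number (with a closing a, x or l and a further digit allowed), Rplp0 to Rplp2, or Rpsa, and whose tables list at least 1 protein-coding transcript. This gave 79 genes with 190 coding transcripts, of 14093 genes with a coding transcript in all. A further 5 names that fit the pattern, of 84, had no coding transcript listed and were left out. A level is the sum of the TPM of a gene's coding transcripts, where TPM is a length-scaled share of a library's transcripts.

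The explants came from ICR mice, an outbred stock, at embryonic day 17.5 and were kept for 2 days in vitro. The 3 control libraries came from explants electroporated with a control plasmid, and the 4 shKmt2f libraries from explants that received a plasmid for a short hairpin RNA against Kmt2f, another name of Setd1a, a histone H3 lysine methyltransferase. Both groups also received an EGFP plasmid, and only EGFP-positive sorted cells were used, so the libraries describe the electroporated cells of a mixed tissue. The input to cDNA synthesis was 1 ng of RNA per library. The age is day 17 in the design text and 17.5 in the sample labels. Whether replicates are different animals is not stated, so a p-value here compares the groups with library-to-library spread that may be only technical.

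The longest Setd1a transcript, of 6487 bases, stood at 0.767, 0.959 and 0.764 TPM in controls 1 to 3 and at 0.407, 0.328, 0.374 and 0.432 TPM in shKmt2f 1 to 4. The groups did not overlap, and the shKmt2f mean was 46.4% of the control mean (two-sided exact permutation test over 35 splits, p = 0.0286, the smallest these splits allow). Of 10 retinal progenitor markers, 4 passed the test for lower and none for higher levels, with summed levels of 1041 to 1190 TPM in controls and 803 to 861 TPM in shKmt2f libraries. Of 6 photoreceptor markers, 4 passed for higher levels, with sums of 526 to 732 TPM against 1028 to 1309 TPM. Sums were also higher without overlap for 8 amacrine, ganglion and horizontal cell markers (69.3 to 79.4 TPM against 84.3 to 97.6 TPM, 1 of 6 tested genes called higher), for 3 pigment epithelium genes (2.25 to 2.41 TPM against 3.14 to 4.87 TPM, 1 of 1 called higher) and for 2 mesenchyme genes (0.122 to 0.670 TPM against 0.675 to 1.10 TPM, none tested). The 2 lens genes listed were lower, at 0.152 to 0.436 TPM against 0.0713 to 0.126 TPM, and were not tested. These lists moved with the groups, and their part in the results for ribosomal protein genes was not tested. The sums of endothelial and pericyte, microglial and astrocyte markers overlapped, and the 6 blood genes were not in the tables used here. In bulk libraries, fewer cells of a type and less RNA per cell cannot be told apart.

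A ribosome joins a large and a small subunit, each built from ribosomal RNA and many proteins present in about 1 copy. Their messenger RNAs are abundant, are made at matched levels and often begin with a run of pyrimidines, the 5′ TOP motif, through which mTOR signalling sets their translation. The genes have many processed pseudogenes, intronless copies made by retrotransposition, whose sequences can be nearly the same as the parent's. For short reads the copies and their parents are hard to separate, which bears on every level given here. Several members have a paralog that can take the same place in the ribosome, such as Rpl22l1 for Rpl22 and Rps27l for Rps27.

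The start sites of members are shown first, because the shared start motif is what the family is best known for. RefSeq promoter windows (build GRCm38.p6) were matched by symbol for 59 members, with 70 start sites. A window of 30 bases, 15 before the start and 15 from the start on, was searched on the gene's strand for 4 words: CTTTC, then CTTTT, as well as CTTCC, and lastly CTTCT. Neighbouring matches may overlap. A word may lie before the start, as for Rpl4 below, or further into the transcript. A match thus need not be a 5′ TOP motif, and a window without a match does not show that the motif is absent. In the lines that follow capitals mark the matches.
Rpl18 at chr7:45718056-45718085, plus strand: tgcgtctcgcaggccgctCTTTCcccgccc
Rps15a at chr7:118116133-118116162, minus strand: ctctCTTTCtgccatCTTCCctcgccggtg
Rplp2 at chr7:141447636-141447665, plus strand: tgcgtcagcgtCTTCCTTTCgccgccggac
Rpl4 at chr9:64173372-64173401, plus strand: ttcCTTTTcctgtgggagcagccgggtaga
Rps26 at chr10:128626492-128626521, minus strand: gtcgggcaagccgccggatcctCTTTCgag
Rpl10 at chrX:74270801-74270830, plus strand: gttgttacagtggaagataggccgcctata
At least 1 of the 4 words stood in 32 of the 70 member windows (45.7%) and in 16.2% of all 32851 windows in the table. On the opposite strand the shares were 17.1% for members and 17.1% for all windows. CTTTC alone was in 22.9% of member windows and 4.05% of all windows. Rps26, whose level fell in the comparison described next, holds a match, and the window of Rpl10, which also fell, holds none.

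Of the 79 members, 78 had at least 1 TPM in at least 3 libraries and were tested together with all other genes, 10857 in total. The exception was Rpl12, a protein of the stalk base, at 0.394, 0.742 and 0.631 TPM in controls and 0.588, 0.439, 0.751 and 0.581 TPM in shKmt2f libraries. Its 3 matched pseudogenes, copies described further on, carried 99.9% of the summed TPM of gene and copies, with a mean of 1010 TPM, so the low value is not its whole signal. Of the 78 tested members, 3 fell, Rpl10 and Rps26 among them (limma on log2(TPM + 1), Benjamini-Hochberg adjusted p under 0.05 over all genes), and no member rose. That is 3 of 78 called lower, where 4.09% of all genes were called lower and 13.4% higher. The members' share of calls was thus near the background for lower and below it for higher levels. At an unadjusted p under 0.05, 13 members were lower and 1 was higher, beside 8.87% and 25.1% of all genes.

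**Figure D1:**
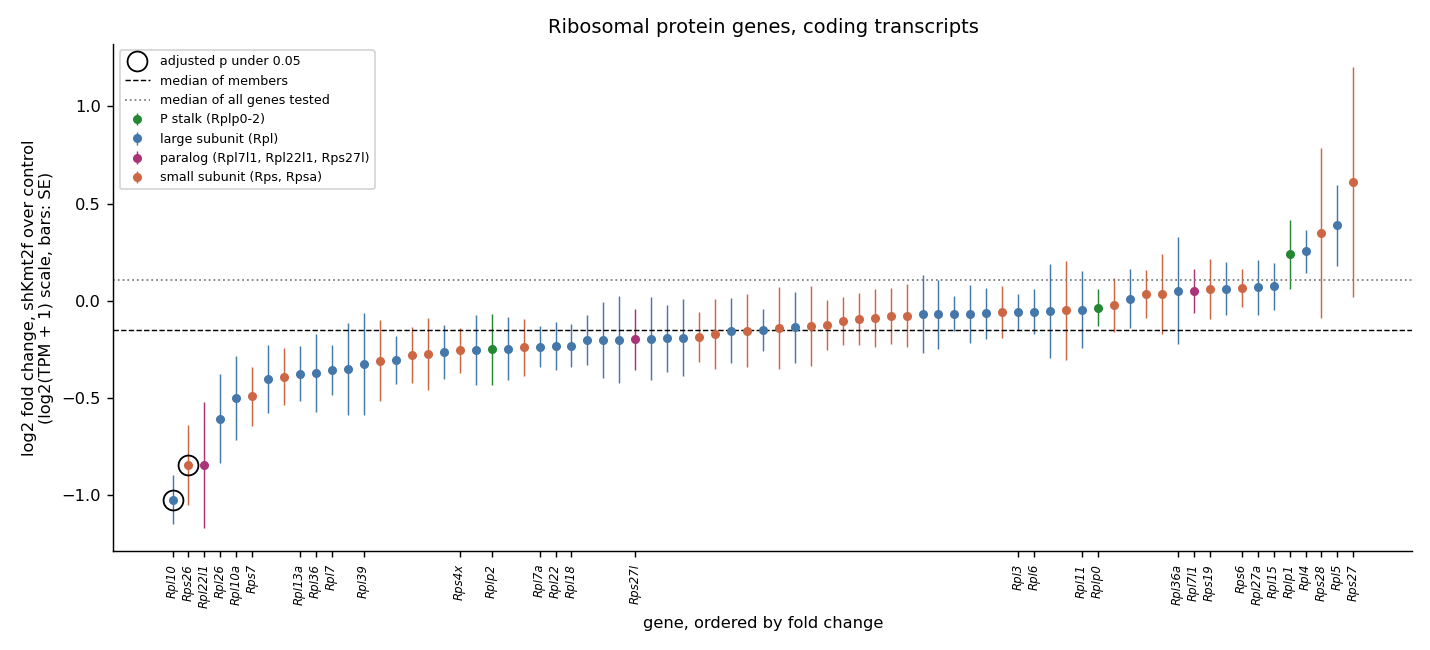
Log2 fold change of 75 of the 78 tested members, shKmt2f over control, on the log2(TPM + 1) scale (y axis), ordered from lowest to highest (x axis), with bars of 1 standard error and colours for subunit, stalk and paralogs. Most of the genes described in the text are named below the axis. Circles mark Rpl10 and Rps26, which passed the threshold, and most other members lie close to the dashed member median of -0.15, below the dotted median of all genes of 0.11.

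The members' fold changes lay close together. Their median log2 fold change was -0.15, with quartiles of -0.26 and -0.05, beside a median of 0.11 and quartiles of -0.13 and 0.41 over all genes tested. A negative value was found for 63 members and a positive one for 15, and 65 lay within 0.25 of the members' median. Large-subunit genes had a median of -0.19 over 42 genes and small-subunit genes one of -0.13 over 30. The 3 stalk genes had a median of -0.03 and the 3 paralogs one of -0.20. Median-ratio scaling shifted the median of all genes from 0.11 to -0.02 and that of members from -0.15 to -0.29. It divides all genes of a library by the same factor, so it leaves the gap between members and other genes nearly unchanged and cannot test it.

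This shared shift followed 2 libraries. After each member was set to its own mean over the 7 libraries, the median over members was 0.31, -0.03 and 0.02 in controls 1 to 3 and 0.03, -0.37, 0.11 and -0.01 in shKmt2f 1 to 4, in log2 units. Control 1 held the highest value of 55 of the 78 members, and shKmt2f 2 held the lowest value of 68. The other 5 libraries of both groups lay between -0.03 and 0.11, with the groups intermingled. Over all genes the same 2 libraries stood apart in the opposite direction, at -0.21 in control 1 and 0.17 in shKmt2f 2. Large-subunit and small-subunit genes moved alike here: their medians were 0.32 and 0.30 in control 1, and -0.35 and -0.38 in shKmt2f 2. When these 2 libraries were left out, which was decided once the values were known, the member median became 0.04, with 46 of 78 members positive, and the median of all genes 0.01. In that fit of 2 against 3 libraries only 9 genes passed the threshold, all lower (0.0842% of 10683), and none of them was a member.

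**Figure D2:**
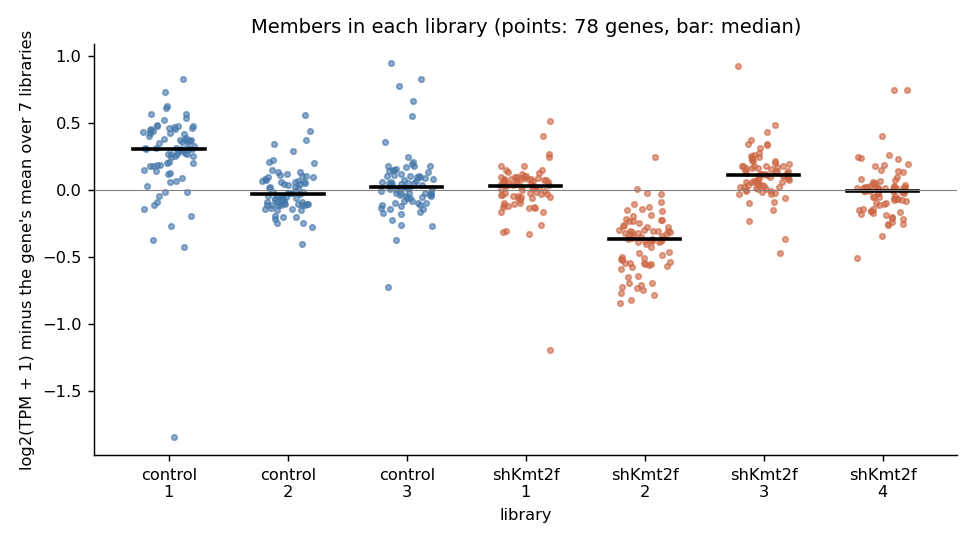
Log2(TPM + 1) of each of the 78 tested members minus that gene's mean over the 7 libraries (y axis), by library (x axis), with a black bar at the median. The medians of control 1 (0.31) and shKmt2f 2 (-0.37) lie apart from the other 5 libraries, which run from -0.03 to 0.11.

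The summed coding TPM of members was highest in control 1 and lowest in shKmt2f 2 as well. It made up 1.79%, 1.37% and 1.46% of library TPM in controls 1 to 3 and 1.44%, 1.09%, 1.54% and 1.41% in shKmt2f 1 to 4. The group means were 1.54% ± 0.224 (SD, n = 3) and 1.37% ± 0.195 (SD, n = 4), a difference of -0.17 percentage points that is smaller than either SD. Without control 1 and shKmt2f 2 the difference was 0.053 percentage points in the other direction. The share that coding transcripts took of all transcripts of member genes was steadier, from 63.6% to 65.4% over the 7 libraries.

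Rpl10 was the member farthest from the others. It encodes uL16, which joins the large subunit in the last steps of its assembly and lies beside the site of peptide transfer. Its coding TPM was 108.6, 110.2 and 118.5 in controls 1 to 3 and 60.0, 44.8, 53.5 and 62.5 in shKmt2f 1 to 4. The lowest control was thus well above the highest shKmt2f library. Control 1, the highest library for most members, was the lowest control here, and shKmt2f 2 was again the lowest library. This is a log2 fold change of -1.02 ± 0.13 (SE), with an adjusted p of 0.00579 in limma. It lay between -0.93 and -1.09 when any 1 library was left out, with an adjusted p under the threshold each time (0.00165 to 0.0276). Without both control 1 and shKmt2f 2 it was -0.95, with an adjusted p of 0.0555 that misses the threshold.

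The same gene was the only member called after the shared trend was removed. For this, the median log2(TPM + 1) over the tested members was subtracted from every gene in each library, and the test was run again over all genes, of which 0.728% were then called lower and 10.8% higher. Relative to the member median, Rpl10 stood at -0.06, 0.08 and 0.14 in controls and at -0.73, -0.63, -1.04 and -0.78 in shKmt2f libraries. All 4 shKmt2f values lay below all 3 controls, with a difference of -0.85 ± 0.26 (SE; adjusted p = 0.0175 by limma). In this fit limma gave genes of similar level nearly the same SE, such as 0.340 for each of Rps26, Rps7 and Rpl22l1. The SE and adjusted p thus mostly reflect spread pooled over genes, and less the gene's own spread between libraries. The call for Rpl10 was lost when control 1, 2 or 3 or shKmt2f 1 or 3 was left out (adjusted p = 0.0618 to 0.169). It held when both control 1 and shKmt2f 2 were left out (-0.96 ± 0.13, adjusted p = 0.0362). With GC content corrected for, it was lost as well (-0.96 ± 0.31, adjusted p = 0.124), and Rpl22l1 was the member called lower instead (-1.39 ± 0.37, adjusted p = 0.0308), beside 0.23% of all genes. With GC content and length corrected for together, Rpl10 passed again (-0.90 ± 0.23, SE; adjusted p = 0.0059 by limma) and Rpl22l1 did not (adjusted p = 0.152). Rps20 and Rps27l also passed as lower there, where 200 of 10857 genes did. The Rpl10 call also held under median-ratio scaling, with the replicate number as a block, with all transcripts and with pseudogenes added.

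The Rpl10 level rests mainly on a coding transcript that lacks an exon, and the junctions that tell it from the full-length form are shown for that reason. Rpl10 lies on the plus strand of chrX:74270812-74273135 (GRCm38). The transcript of 523 bases skips an exon of 163 bases at chrX:74272672-74272834, a length that leaves a remainder of 1 on division by 3. Each line gives the last 30 bases of the exon ending at chrX:74272317 in lower case, and in capitals the first 30 bases of the next exon, which starts at 74272672 in the full-length transcript and at 74272915 in the other.
Rpl10 full-length, 799 bases: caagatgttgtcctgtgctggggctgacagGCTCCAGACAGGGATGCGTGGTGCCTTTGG
Rpl10 exon-skipping, 523 bases: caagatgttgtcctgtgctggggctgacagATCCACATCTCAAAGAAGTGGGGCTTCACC
The exon-skipping transcript had 93.2, 93.6 and 99.4 TPM in controls and 48.5, 38.2, 44.7 and 53.3 TPM in shKmt2f libraries. The 2 full-length coding transcripts together had 15.4, 16.6 and 19.1 TPM in controls and 11.5, 6.60, 8.84 and 9.19 TPM in shKmt2f libraries. Neither quantity overlapped between the groups, as a description of the parts of the sum that was called above. The skipping form's share of coding TPM was 83.9% to 85.9% in controls and 80.8% to 85.3% in shKmt2f libraries, and these ranges overlapped. Both forms were lower, with shKmt2f means at 0.484 and 0.531 of the control means. Tested singly, neither full-length transcript passed in limma (adjusted p = 0.0797 for that of 799 bases and 0.0901 for the other). The authors' deposited table called neither (q = 0.503 and 0.05004). The 5 retained-intron transcripts of Rpl10 summed to 49.0, 19.2 and 40.0 TPM in controls and 24.9, 27.4, 23.0 and 26.9 TPM in shKmt2f libraries, which overlap. No pseudogene transcript in the tables was matched to Rpl10 by sequence. With listed pseudogenes named after Rpl10 added, its log2 fold change stayed at -1.02. Of the other X-linked members, Rps4x had a log2 fold change of -0.26, Rpl39 one of -0.32 and Rpl36a one of 0.05, and none of them passed the test (adjusted p from 0.15 to 0.922 in limma).

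Rps26 encodes eS26, a small-subunit protein that contacts messenger RNA near the exit of the channel. Its coding TPM was 11.7, 7.70 and 13.2 in controls and 6.62, 4.52, 6.09 and 4.85 in shKmt2f libraries, without overlap (-0.85 ± 0.20 log2 units, SE; adjusted p = 0.0285 by limma). The single matched pseudogene, Rps26-ps1, carried far more TPM than the gene, 259, 186 and 179 in controls and 214, 142, 230 and 197 in shKmt2f libraries. Parent and copy together had 219 ± 44.5 TPM (SD, n = 3) in controls and 201 ± 39.1 TPM (SD, n = 4) in shKmt2f libraries, and overlapped (two-sided exact permutation test, p = 0.6). How reads were split between the copy and the parent cannot be seen in the tables. A retained-intron transcript of Rps26 also had more TPM than the coding form, at 30.7, 28.2 and 23.9 in controls and 32.7, 26.4, 34.1 and 30.1 in shKmt2f libraries, which overlap. With all transcripts of the gene summed, the log2 fold change was -0.08, and the call was lost (limma adjusted p = 0.71). In the leave-1-out fits Rps26 passed the threshold only without control 2. Rps7 (adjusted p = 0.053 in limma) and Rpl7 (0.0814) lay just outside the threshold. Rps7, another small-subunit gene, had 4.15, 4.09 and 3.93 TPM in controls and 2.34, 2.33, 3.32 and 2.47 TPM in shKmt2f libraries. Under median-ratio scaling, where 8.01% of all genes were called lower, it passed as lower (-0.60, limma adjusted p = 0.0336). Its matched copies carried 99.8% of the summed TPM, and its log2 fold change was -0.09 with the copies added and -0.11 with all transcripts of the gene.

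**Figure D3:**
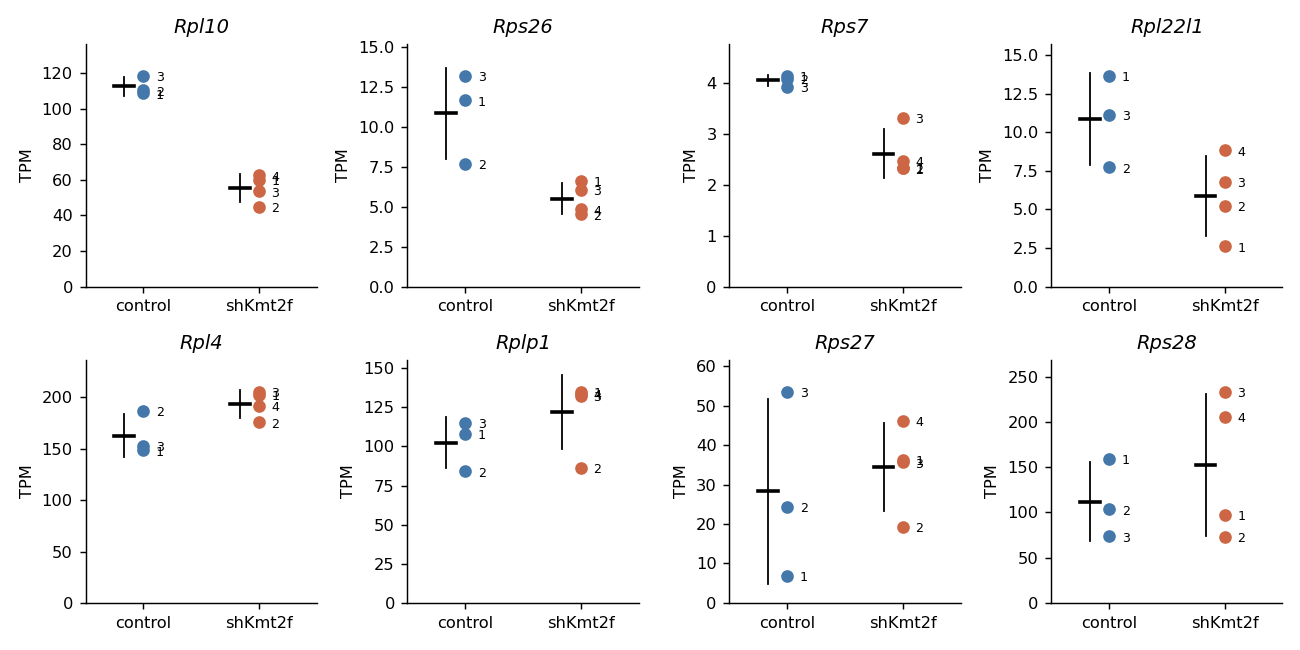
Coding TPM (y axis, from 0) of 8 members in control and shKmt2f libraries, with the replicate number beside each point and the mean and SD as a black bar and line. Rpl10, Rps26 and Rps7 do not overlap between groups, while Rps27 and Rps28 spread widely within groups.

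By ranges alone, 10 of 78 members did not overlap between groups, all lower in shKmt2f, among them Rpl10, Rps26, Rps7, Rps4x, Rpl7, Rpl7a, Rpl13a and Rpl36. Over all genes 9.28% did not overlap and were lower, and 20.7% did not overlap and were higher. Relative to the member median 4 were lower, among them Rpl10, Rps26 and Rpl13a, and 6 lay higher: Rplp1, Rpl5, Rpl15, Rps6, Rpl6 and Rpl27a. For this measure 1.41% of all genes were lower and 18.6% higher. The 4 lower of 78 members were thus above the share of all genes, and the 6 higher were below it. Subtracting the members' own median moved the median of all genes to 0.28, so these shares are an uneven background for members. Of the members outside the shared trend Rpl10 alone passed the adjusted test.

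The stalk proteins recruit elongation factors to the large subunit. The TPM of Rplp1 was 108, 84.0 and 115 in controls and 135, 86.5, 132 and 134 in shKmt2f libraries. Relative to the member median it was at -0.07, -0.30 and 0.10 in controls and at 0.42, 0.31, 0.25 and 0.31 in shKmt2f libraries, so the ranges separated, but the adjusted test was not passed (difference 0.41 ± 0.25, SE; adjusted p = 0.317 by limma). As for Rpl10, that SE was largely shared with genes of similar level. Rplp0, the stalk's base, had 308, 290 and 297 TPM against 311, 263, 316 and 278 TPM, a log2 fold change of -0.03 ± 0.10 (SE). Rplp2 had a log2 fold change of -0.25 ± 0.18 (SE). Corrected for GC content and length together, Rplp1 passed the threshold as higher (log2 fold change 0.67, limma adjusted p = 0.018), so its call depends on that correction. The matched copy of Rplp1, RP23-360H6.2, had lower values in shKmt2f libraries, at 47.4, 33.0 and 31.2 TPM in controls and 20.9, 19.1, 24.0 and 16.2 TPM in shKmt2f libraries, without overlap (limma adjusted p = 0.056; q = 0.0153 in the authors' deposited table). Gene and copy together had 139.6 ± 20.04 TPM (SD, n = 3) in controls and 141.9 ± 24.4 TPM (SD, n = 4) in shKmt2f libraries, which overlap (two-sided exact permutation test, p = 0.857). With the copy added the log2 fold change was 0.02.

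Rpl5, which carries the 5S ribosomal RNA into the large subunit together with Rpl11, had 3.73, 5.97 and 3.89 TPM in controls and 6.03, 4.44, 7.01 and 7.40 TPM in shKmt2f libraries (0.39 ± 0.21 log2 units, SE; adjusted p = 0.224 by limma). Rpl11 had 2.50, 3.85 and 4.79 TPM in controls and 3.12, 3.08, 4.25 and 3.50 TPM in shKmt2f libraries (-0.05 ± 0.20 SE). Of the TPM of gene and copies, 97.0% for Rpl5 and 97.4% for Rpl11 was assigned to the copies. Rpl4, whose protein lines the peptide exit tunnel, had 149, 187 and 153 TPM in controls and 202, 176, 205 and 192 TPM in shKmt2f libraries (0.25 ± 0.11 log2 units, SE; adjusted p = 0.137 by limma). Without control 2 it passed the threshold as higher, the only member to do so in the leave-1-out fits without the member median subtracted, and there 22.3% of all genes passed as higher. Of the remaining members with the lowest values, Rpl26 had a log2 fold change of -0.61 ± 0.23 (SE) and Rpl10a, a protein of the L1 stalk where spent transfer RNA leaves, one of -0.50 ± 0.22 (SE). Neither passed the test (limma, adjusted p = 0.0987 and 0.139). With the replicate number as a block Rpl26 passed as lower (-0.65, limma adjusted p = 0.0087), where 372 of 10857 genes did. Without control 2 it passed as lower too, as did 549 of 10770 genes.

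The paralogs were compared with their parents within each library, which removes any shift common to both. Of 8 pairs considered, 4 had both genes tested. Rpl22l1 had 13.7, 7.74 and 11.1 TPM in controls and 2.62, 5.25, 6.78 and 8.83 TPM in shKmt2f libraries, while Rpl22 had 39.7, 36.0 and 39.3 against 32.4, 27.8, 38.0 and 32.2 TPM. The log2 ratio of Rpl22l1 to Rpl22 averaged -1.76 in controls and -2.37 in shKmt2f libraries, and the ranges overlapped (difference -0.61, two-sided exact permutation test, p = 0.143, adjusted over the 4 pairs 0.267). Of the TPM of Rpl22l1 and its matched copies, 90.8% was assigned to the copies. The coding log2 fold change of Rpl22l1 was -0.84 ± 0.33 (SE; adjusted p = 0.102 by limma). With the replicate number as a block it passed as lower (-1.05, limma adjusted p = 0.0318), where 372 of 10857 genes did. With all transcripts of Rpl22l1 summed, its log2 fold change was -0.30 (limma adjusted p = 0.348). The ratio of Rpl7l1 to Rpl7 averaged -2.10 in controls and -1.69 in shKmt2f libraries. All 4 shKmt2f ratios lay above all 3 controls, but shKmt2f 2, at -1.23, and control 1, at -2.40, stood apart (difference 0.41, exact p = 0.0857, adjusted 0.267). Without both of those libraries the difference was 0.10. In this pair Rpl7l1 had nearly level TPM of 45.4 to 50.9 in controls and 45.6 to 58.5 in shKmt2f libraries, and the ratio followed Rpl7, at 194 to 244 TPM against 138 to 182 TPM.

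Rps27l and Rps27 encode nearly identical proteins and showed the widest spread of any pair. Rps27l had 1182, 788 and 840 TPM in controls and 854, 655, 862 and 861 TPM in shKmt2f libraries. Rps27 had 6.88, 24.4 and 53.5 TPM in controls and 36.3, 19.4, 35.6 and 46.2 TPM in shKmt2f libraries. The spread of Rps27 among controls was wider than the difference between the groups, and 98.7% of the TPM of Rps27 and its matched copies was assigned to the copies. The ratio differed by -0.81 between groups (exact permutation p = 0.457) and by 0.12 in the other direction without control 1. Relative to the member median, Rps27 passed as higher when control 3 was left out (1.44 ± 0.37, SE; adjusted p = 0.0123 by limma), where 2.36% of all genes did. Controls 1 and 2, the controls left, stood at -3.86 and -2.05 relative to that median, a gap far wider than the SE. With all libraries its SE there was 0.31, while its values relative to the median had an SD of 0.95 over the 7 libraries. For Rpl36al and Rpl36a the ratio averaged 2.02 in controls and 1.74 in shKmt2f libraries (exact p = 0.2, adjusted 0.267). With 3 against 4 libraries the smallest possible exact permutation p was 0.0286, before adjustment over the 4 pairs. A single pair at that value could not pass 0.05 after adjustment. That no pair passed therefore does not show that the ratios were unchanged. The other parents had log2 fold changes of -0.06 (Rpl3), -0.32 (Rpl39) and -0.26 (Rps4x), and their paralogs had no coding transcript listed.

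Rpl18 and Rps27l were among the 3 members with the highest TPM. Rpl18 had 1555, 1261 and 1421 TPM in controls and 1257, 1035, 1304 and 1217 TPM in shKmt2f libraries, which overlap (log2 fold change -0.23 ± 0.11 SE). It did not pass the test (limma, adjusted p = 0.174). The order of members by level is not an order of messenger RNA abundance. Pseudogenes matched by sequence to a member, at 90% identity or more over at least 50% of the pseudogene, were listed for 66 of the 79 members, with 154 transcripts. They carried 2.80% to 5.13% of library TPM, 2.56 to 2.86 times the members' own coding TPM. For 50 members the matched copies had more TPM than the coding transcripts.

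**Figure D4:**
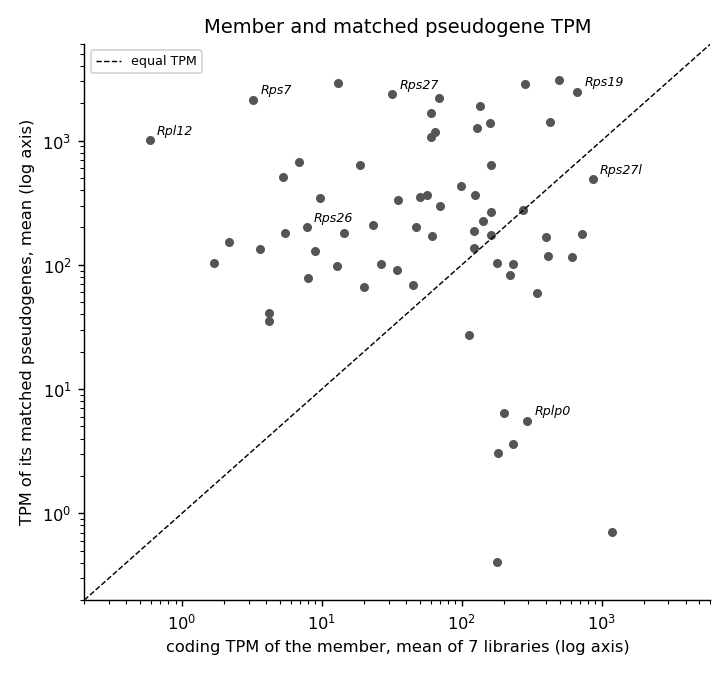
Coding TPM of each member with a matched pseudogene (x axis, log scale) against the summed TPM of its matched pseudogenes (y axis, log scale), both as means of 7 libraries. Points above the dashed line of equal TPM are the 50 members whose copies outweigh them, among them Rps26, Rps27 and Rps7, and Rplp0 lies far below it.

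With the TPM of these copies added to each parent, 72 of 79 members had a negative log2 fold change, with a median of -0.20, and Rpl10 was the only member called, beside 4.05% of all genes called lower. Rps26 no longer passed. The 13 tested members with no matched copy, Rpl10 among them, had a median log2 fold change of -0.23. Members were short, with a median length of 594 bases beside 2241 bases over all genes tested, and had a median GC content of 50.7% beside 50.6%. Across the 78 members the log2 fold change and the log2 length had a Spearman correlation of 0.29, as a description only, since the members share libraries. The 26 shortest members, up to 502 bases, had a median of -0.20 and the 26 longest one of -0.08. The member median was -0.08 when GC content was corrected for, and 0.08 with both GC content and length corrected for. In that last fit 4 members passed as lower (Rpl10, Rps26, Rpl27 and Rps20) and 4 as higher (Rplp1, Rps19 and Rps10 among them), beside 3.76% and 9.46% of all genes.

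Single transcripts of the member genes were tested next, in a fit over 37024 transcripts of which 2.24% passed in either direction (294 lower and 534 higher). Of 340 tested transcripts of member genes, 2 passed, both lower: the Rpl10 exon-skipping transcript (-1.04 ± 0.12 log2 units, SE; adjusted p = 0.0148 by limma) and a retained-intron transcript of Rps19. Rps19 encodes eS19 of the small subunit's head, the gene most often mutated in Diamond-Blackfan anaemia. The retained-intron transcript has 395 bases and had 71.3, 24.0 and 37.5 TPM in controls and 1.27, 1.87, 2.94 and 2.39 TPM in shKmt2f libraries. Every control was thus several times above every shKmt2f library (-3.75 ± 0.35 log2 units, SE; adjusted p = 0.00846 by limma). In the authors' deposited table its effect was -3.04 on the natural log scale, with a q-value of 1.31e-07. The call held in limma when any 1 library was left out (adjusted p = 0.00147 to 0.0327), and that of the Rpl10 transcript was lost without control 1 or 3 or shKmt2f 1 or 3 (0.051 to 0.0653). Both missed the threshold with the replicate number as a block (adjusted p = 0.0858 for Rps19 and 0.105 for Rpl10, by limma) and with control 1 and shKmt2f 2 both left out (0.0737 and 0.104). The coding TPM of Rps19 overlapped between the groups, at 790, 569 and 600 in controls and 723, 537, 791 and 671 in shKmt2f libraries.

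What sets this Rps19 transcript apart is its start within an intron, so that stretch is shown. It begins at chr7:24888190 on the plus strand (GRCm38), runs through 92 bases that are intronic in the coding transcripts, given in lower case, and continues into the coding exon at chr7:24888282-24888465, whose first 30 bases are given in capitals.
Rps19 intron-start, 395 bases: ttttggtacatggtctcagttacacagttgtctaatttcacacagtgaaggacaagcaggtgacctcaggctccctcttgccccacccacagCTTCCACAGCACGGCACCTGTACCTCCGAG
The exon part stands in the coding transcripts too. One of the matched copies of Rps19, RP23-146N20.3, lies on the minus strand of chr8:40683497-40683647 and had higher values in shKmt2f libraries. Its 151 bases align without gaps to the end of the Rps19 coding sequence, and capitals mark the mismatches, which are G4T, G82A, G85A and C103T from Rps19 to the copy, counted from the first base shown.
Rps19: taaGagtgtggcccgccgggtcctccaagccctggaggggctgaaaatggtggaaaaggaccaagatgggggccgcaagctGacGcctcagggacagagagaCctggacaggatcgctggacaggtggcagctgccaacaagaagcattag
RP23-146N20.3: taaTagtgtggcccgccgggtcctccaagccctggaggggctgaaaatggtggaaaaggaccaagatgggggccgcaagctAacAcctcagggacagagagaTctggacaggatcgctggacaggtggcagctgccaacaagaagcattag
The copy had 2274, 1925 and 1919 TPM in controls and 3167, 2225, 2965 and 2836 TPM in shKmt2f libraries, which overlap by 1 library (0.45 ± 0.13 log2 units, SE; adjusted p = 0.0985 by limma). Rps19 coding transcripts and matched copies together had 2693 ± 323 TPM (SD, n = 3) and 3481 ± 503 TPM (SD, n = 4), a difference that the two-sided exact permutation test did not separate (p = 0.0857). Relative to the member median, with copies added to every member, this sum passed as higher in limma (0.57 ± 0.19, SE; adjusted p = 0.0298), as did 10.4% of all genes.

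Of 125 tested pseudogene transcripts matched to members, 2 passed, both lower, beside 294 lower and 534 higher of all 37024 transcripts tested. RP23-336M12.2 is a copy of Rplp0 on the minus strand of chr8:102864845-102865798, 98.7% identical over 954 bases with 12 mismatches. The 90 bases with the most mismatches are shown, bases 358 to 447 of the alignment, with the 3 differing positions in capitals.
Rplp0: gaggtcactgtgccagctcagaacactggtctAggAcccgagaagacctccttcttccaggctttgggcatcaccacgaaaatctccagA
RP23-336M12.2: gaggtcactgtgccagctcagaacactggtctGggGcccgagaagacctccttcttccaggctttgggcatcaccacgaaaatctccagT
The copy had 15.4, 10.9 and 12.4 TPM in controls. Of the shKmt2f libraries, 1 and 4 were listed at 0, and 2 and 3 at 0.0642 and 0.343 TPM (limma adjusted p = 0.000904). In the authors' deposited table its q-value was 8.77e-07. Rplp0 with the copy added had 311 ± 11.4 TPM (SD, n = 3) in controls and 292 ± 25.6 TPM (SD, n = 4) in shKmt2f libraries. The other was Rpl36-ps10, at chrX:19870824-19871039, with 170, 171 and 155 TPM in controls and 69.2, 81.7, 107 and 85.5 TPM in shKmt2f libraries (-0.95 ± 0.15 log2 units, SE; adjusted p = 0.0311 by limma). The authors' deposited table did not call it (q = 0.272). Of the 154 matched pseudogene transcripts that table called 2, both lower: RP23-336M12.2 and RP23-360H6.2, the copy of Rplp1 described above.

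**Figure D5:**
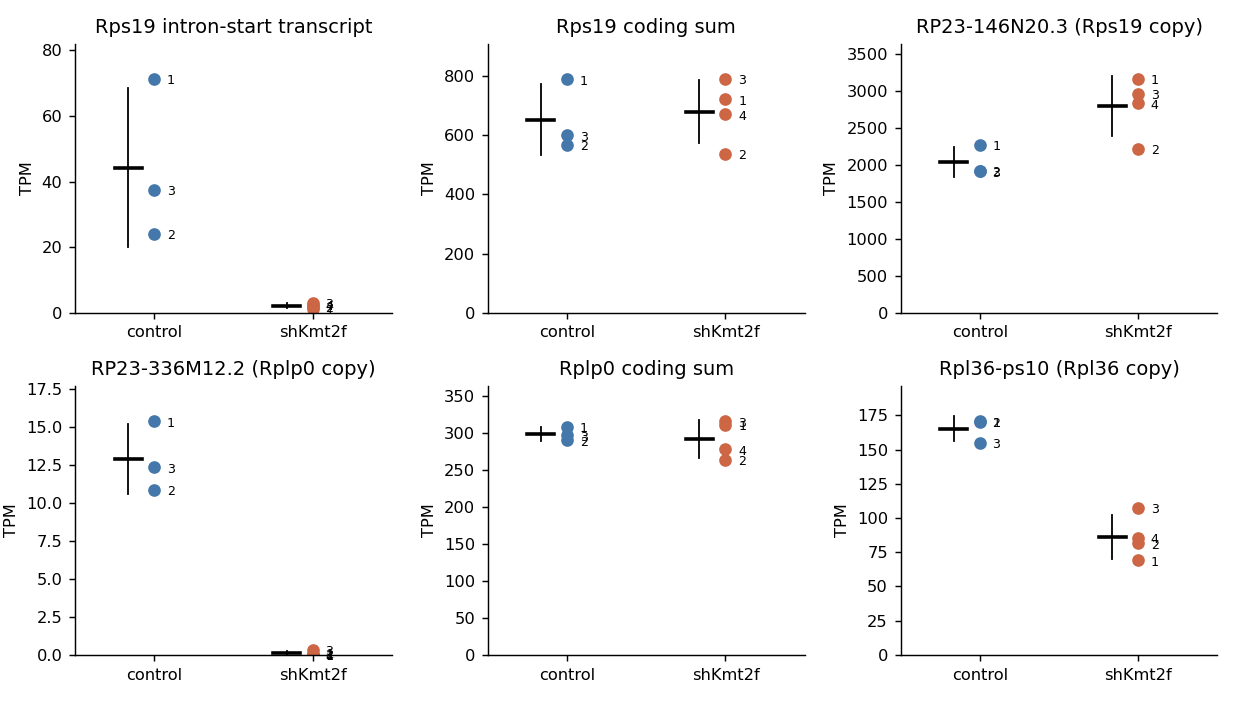
TPM (y axis, from 0) in control and shKmt2f libraries for the Rps19 intron-start transcript, Rps19 coding sum and its copy RP23-146N20.3, and for the Rplp0 copy RP23-336M12.2, Rplp0 coding sum and Rpl36-ps10, with replicate numbers, mean and SD. The intron-start transcript, RP23-336M12.2 and Rpl36-ps10 are separated between groups, while the Rps19 and Rplp0 coding sums overlap.

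The authors' deposited table gave 4 of 403 transcripts of member genes a q-value under 0.05, all lower, beside 2.09% of 55404 transcripts called lower. They were the Rps19 intron-start and Rpl10 exon-skipping transcripts, the Rps26 coding transcript (q = 0.0186) and a retained-intron transcript of Rpl3 (q = 0.0486). The Rpl3 transcript had 3.12, 3.36 and 3.54 TPM in controls and 2.42, 1.98, 2.39 and 2.16 TPM in shKmt2f libraries, without overlap, and did not pass in limma (adjusted p = 0.147). Rpl3 coding TPM was level, at 159 to 174 in controls and 147 to 175 in shKmt2f libraries. Coding transcripts of members had a median log2 fold change of -0.14 over 169 tested, retained-intron transcripts one of -0.09 over 110, and matched pseudogenes one of -0.17 over 125, beside 0.09 over all transcripts.

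Other genes of the translation machinery were read from lists in the same fit. The 4 ribosomal protein genes outside the naming rule included Fau, which encodes a ribosomal protein fused to a ubiquitin-like protein. None of the 4 passed, and their median log2 fold change was -0.20. Fau had 176, 126 and 131 TPM in controls and 128, 91.0, 147 and 118 TPM in shKmt2f libraries, with control 1 highest and shKmt2f 2 lowest as among the members.

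Of 76 tested mitochondrial ribosomal protein genes, 5 fell and 1 rose, with a median of -0.05. Over all genes 4.09% were called lower and 13.4% higher, against which this and the following lists are to be read. Mrpl21 had 21.1, 21.1 and 24.7 TPM in controls and 12.23, 9.80, 11.2 and 14.0 TPM in shKmt2f libraries (-0.87 ± 0.15 log2 units, SE; adjusted p = 0.0126 by limma). Mrpl42 (-0.43) and Mrpl46 (-0.45) were the next by adjusted p, and Mrpl50 rose (0.54). Control 1 was not the highest control for Mrpl21, and shKmt2f 2 was its lowest library.

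Translation initiation factors had 4 genes higher and 1 lower of 38 tested, a share near or below that of all genes in both directions, with a median of 0.05. Eif4g2, a homologue of the eIF4G scaffold that works without the cap-binding factor, had 150, 324 and 215 TPM in controls and 469, 547, 429 and 437 TPM in shKmt2f libraries (1.10 ± 0.22 log2 units, SE; adjusted p = 0.0188 by limma). Eif3a (0.67) and Eif5 (0.41) also rose. Eif2b4 fell (-0.35). Of 11 elongation and termination factors, Abce1, which recycles ribosomes after termination, rose (1.28), at 11.9, 36.8 and 15.3 TPM in controls and 44.3 to 51.5 TPM in shKmt2f libraries. Eef1g fell (-1.03), at 2.93, 2.49 and 2.20 TPM in controls and 0.544 to 0.928 TPM in shKmt2f libraries.

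Of 47 tested ribosome biogenesis genes, Tsr1 (0.57), Riok2 (0.53) and Gnl3 (0.79) rose and Polr1c (-0.36), a subunit of RNA polymerases I and III, fell. Calls for higher levels were thus a smaller share than the 13.4% of all genes. The median of the list was 0.17. Tsr1 and Riok2 act in the last cytoplasmic steps of small-subunit maturation. Of 12 other messenger RNAs known for 5′ TOP starts none passed, and the median was 0.19. Ybx1 had 244 to 329 TPM in controls and 296 to 331 TPM in shKmt2f libraries, and Hnrnpa1 had 189 to 222 TPM against 182 to 194 TPM. The ribosomal protein genes lay below each of these lists other than the 4 genes outside the naming rule, by their medians, and no test of the lists against each other was made. This order is that of the main fit only. The member median was 0.04 without control 1 and shKmt2f 2, and 0.08 with GC content and length corrected for. Medians of the lists in those fits are not given here. With control 1 and shKmt2f 2 both left out, no gene of these lists passed the threshold.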

How the data were processed

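Salmon 0.11.3, sleuth 0.30.0 and build GRCm38.p6 are named in the submitters' processing notes. TPM per transcript was deposited by the authors for each library (55404 of 55475 rows hold a value), and the deposited tables also hold p-values, q-values and an effect that matches a natural log ratio. TPM keeps no depth, so the depth is unknown, no counting error is given, and low values are less certain. TPM was summed over coding transcripts per gene. Genes with 1 TPM or more in at least 3 libraries were tested with limma 3.58.1 (R 4.3.3; trend and robust options) on log2(TPM + 1), shKmt2f minus control, Benjamini-Hochberg adjusted over all genes, threshold 0.05. Fold changes on this scale understate those of low genes. The relative fit subtracted the member median per library, and its SEs were largely shared between genes of similar level. Paralog ratios and Setd1a (log2(TPM + 0.1)) used exact permutation tests. Pseudogenes were matched with blastn 2.17.0 to coding transcripts. On simulated data of 10857 genes, 63% of changes of 1 log2 unit and 96% of 2 were recovered, and 5.92% of the calls made were false. The simulated noise was independent between genes, without the shared library shifts described above, so these rates need not hold for these data. The members and lists were chosen with earlier results of these data known. Named genes were those past a threshold, the 6 highest and 6 lowest fold changes, the 3 highest levels, paralog pairs, and up to 3 genes per list past the threshold (otherwise the 2 highest), and others were named after their values were seen. A few members and list genes are counted but not reported by name here. Alternatives were median-ratio scaling, no filter, another pseudocount, GC and length corrections, a replicate block, all transcripts, added pseudogenes and left-out libraries. Same-numbered libraries had correlations of deviations of 0.0615 to 0.0926, so numbers were not taken as pairs.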

Additional observations from a re-analysis of the deposited data

Results flagged for a closer look

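In the shKmt2f group of 4 libraries, the highest or lowest value was set against the others by Dixon's test for 43 measures, of which chance flags about 1 in 20, and 5 stood out. shKmt2f 2 was far below the other 3 for Rplp1 (86.5 TPM), Rps27l (655 TPM) and Rpl39 (36.3 TPM). For Hnrnpa1 it was only slightly lower (182 TPM), and was flagged because the other 3 lay close together, at 193 to 194 TPM. For Eif5, shKmt2f 1 was far above the other 3 (217 TPM).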

How the results depend on the processing

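TPM carries no depth, so it cannot be said which differences the sequencing could have shown, and 3 against 4 libraries limit every test. Members called lower were 3 as reported, 5 with a replicate block, 1 with all transcripts, 1 with pseudogenes added by sequence (chosen after seeing the data) and 0 with control 1 and shKmt2f 2 both left out (likewise), where 9 of all genes passed. Correction for GC content and length together called 4 members higher, and 3 lower relative to the member median. Pseudogenes added by sequence called 1 higher relative to that median. With 1 library left out, members called lower ranged from 1 to 5 and higher from 0 to 1, and relative to the member median both from 0 to 1. All genes called then ranged from 283 to 2949, beside 1896 as reported. Median-ratio scaling gave 57.7% of all calls as higher, beside 76.6%.

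Genes of the other translation lists called lower were 8 as reported, 13 under median-ratio scaling, 4 with the replicate block, 0 with both libraries left out and 1 to 17 with 1 left out. Those called higher were 9 as reported, 5 under median-ratio scaling, 5 without a filter, 5 under GC correction, 16 with all transcripts, 0 with both libraries left out and 0 to 35 with 1 left out. Member transcripts called were 2 as reported, 0 with the replicate block, 0 with both libraries left out and 1 to 10 with 1 left out. The member share of TPM differed by -0.69 percentage points with pseudogenes added by sequence and by 0.053 with both libraries left out. The ratio of Rps27l to Rps27 differed by -1.52 to 0.12 with 1 library left out. For Setd1a that range was -0.99 to -0.84, with exact permutation p of 0.0667 or 0.1, the smallest that fewer libraries allow.

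Changes of sign among genes named by the rule, none of them called as reported, were these log2 fold changes. Median-ratio scaling gave -0.065 (Rpl15), -0.088 (Rpl7l1) and -0.084 (Rpl36a). GC correction gave -0.039 (Rpl15), -0.088 (Rpl36a) and 0.00079 (Rpl3). GC content and length together gave 0.18 (Rpl18), -0.035 (Rpl7l1), 0.21 (Rpl3) and 0.17 (Fau). All transcripts gave -0.015 (Rps27), -0.15 (Rpl15) and -0.12 (Rpl36a). Pseudogenes added by name gave -0.20 (Rpl36a), and by sequence -0.15 (Rps27), -0.064 (Rpl5), -0.27 (Rps28), -0.13 (Rpl15) and -0.13 (Rpl36a). With both libraries left out the values were 0.079 (Rps27l), -0.064 (Rpl7l1), 0.15 (Rpl39) and 0.021 (Fau). With 1 library left out the ranges were -0.14 to 1.26 (Rps27), -0.11 to 0.29 (Rpl36a), -0.022 to 0.096 (Rpl7l1) and -0.11 to 0.0058 (Hnrnpa1). Rps19 and Rps10, named for other reasons, changed sign too: Rps19 had -0.082 under median-ratio scaling, -0.053 with all transcripts and -0.032 to 0.21 with 1 library left out, and Rps10 had 0.16 under GC correction, 0.37 with GC content and length, 0.12 with both libraries left out and -0.15 to 0.039 with 1 left out. The causes were not tested. Same-numbered libraries 1 to 3 were taken as unpaired, and no control correlated best with the shKmt2f library of its number. The block gives shKmt2f 4, which has no partner, no weight.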
